A study of Mus musculus with 20 samples.

Results

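Training, called endurance training in the series title, was examined in wild-type mice by comparing skeletal muscle RNA from 5 trained and 5 untrained animals. Membership was taken from the sample titles, and these 10 arrays are part of a series of 20 arrays, 1 per mouse. The remaining 10 arrays come from trained and untrained mice that over-express MHC class I, 5 of each, and are used here only for comparison. Titles and source names agree on genotype and training for every animal, whereas the free-text description calls all 20 animals transgenic and trained; it thus contradicts the wild-type and untrained labels and was not used. The labels name the tissue only as skeletal muscle and give no strain, age, sex, muscle, training protocol, array batch or interval between the last bout and tissue collection. Nothing was given to the mice beyond training, as far as the labels state. Animals are named below by their titles: WTUT-130, WTUT-135, WTUT-136, WTUT-138 and WTUT-142 were untrained, and WTT-129, wtt-134, wtt-137, WTT-141 and WTT-144 were trained.

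Repeated endurance exercise is known to enlarge the oxidative capacity of skeletal muscle. Muscle fibres make more mitochondria, whose inner membrane carries the respiratory chain (complexes I to IV) and the ATP synthase, and the fuel-oxidising enzymes of the matrix increase with them. Fibres can also shift from the fastest myosin isoforms towards slower, more oxidative ones, and capillaries and the collagen matrix are remodelled. Single bouts of exercise, fasting, stress hormones and time of day move a different and faster set of transcripts, among them Pdk4, Cdkn1a, heat shock chaperones and clock genes.

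The samples carried the markers of the labelled tissue. All 5 skeletal muscle markers (Ckm, Acta1, Mylpf, Tnnt3 and Des) lay between the 99.8th and 100th percentile of probe sets. Of the 3 cardiac markers, Myh6 and Tnni3 fell below the filter on dim probe sets, whereas Nppa passed it, at the 74.6th percentile. Array medians ranged from 157 to 168 intensity units in untrained and from 160 to 169 in trained mice (exact permutation p = 0.944, two-sided). Log2 ratios of 3' to 5' probe sets, a measure of RNA integrity, averaged 0.01 in both groups for Gapdh (exact permutation p = 0.905), and -0.28 and -0.31 for Actb (exact permutation p = 0.214). Correlations between arrays of log2 values ran from 0.935 to 0.991. Mouse wtt-137 stood apart: 3.62% of its cells were empty, against 0.0176% to 0.582% in the other 9 mice, it correlated with them at 0.935 to 0.971, and it lay farthest out on the first principal component. Differences that exceeded their SE and moved by over 1.5 times without it are given with and without it. For arrays the number of mice limits the precision. The permutation p-values measure the spread between these 10 animals. Those of the linear model below use a spread estimated over all arrays of the series, transgenic mice included. The labels do not say whether the animals shared litters or cages.

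Differences are given as trained minus untrained on the scale log2(intensity + 66.7), with the standard error (SE) from a linear model fitted with limma to all 20 arrays; this scale understates the fold of dim genes. Intensities are linear, as mean ± SD. No probe set passed an adjusted p under 0.05: 0 of 13576 were called (0%), and the smallest adjusted p was 0.145. At an unadjusted p under 0.05 there were 1069 probe sets (7.87%), of which 644 (4.74%) were higher and 425 (3.13%) lower in trained mice. Counted over 8486 genes with 1 probe set each, 686 (8.08%) reached that unadjusted threshold: 441 genes (5.2%) were higher and 245 (2.89%) lower, while 50% of genes had a difference above 0. All 5 trained mice lay above all 5 untrained mice for 173 genes (2.04%) and below them for 79 genes (0.931%). The list counts below are to be read against these shares, and 1 or 2 members of a list at the unadjusted threshold in a direction is within 2 genes of them. With mouse wtt-137 left out, 4.24% of all genes were higher and 2.03% lower at that threshold. The median difference over all genes was 0.00, and the 5th and 95th percentiles were -0.19 and 0.19. None of the differences described below therefore passed the correction over the array in this fit, and gene names follow a rule based on the smallest p in each direction and in each gene list, joined by list members picked after their values were seen. When arrays were weighted by their quality, 90 probe sets were called, 69 higher and 21 lower, and without mouse WTT-144 there were 4.

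On the higher side, most of the 10 genes of smallest p were mitochondrial, but the share of mitochondrial genes among all tested genes was not counted. Of the 10 higher genes of smallest p, Slc25a11, Ndufb10, Atp5g1, Ckmt2, Mrpl19 and Alas1 encode proteins of the mitochondrion. The others were Casq2, the calcium-binding protein calsequestrin of slow-fibre and heart sarcoplasmic reticulum, Gas6, a ligand of the TAM receptor kinases, Mgp, the matrix Gla protein that inhibits calcification, and Palmd. The 10 lower genes of smallest p were Mylk2, Gnas, Gpcpd1, Rsrp1, Kcnab1, Cmya5, Fbp2, Mlx, Park7 and Eif4b. Among these 20, the probe sets of Casq2, Ndufb10, Atp5g1, Mrpl19, Gnas, Rsrp1, Kcnab1, Mlx and Park7 carry names that mark them as able to bind several transcripts.

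**Figure D1:**
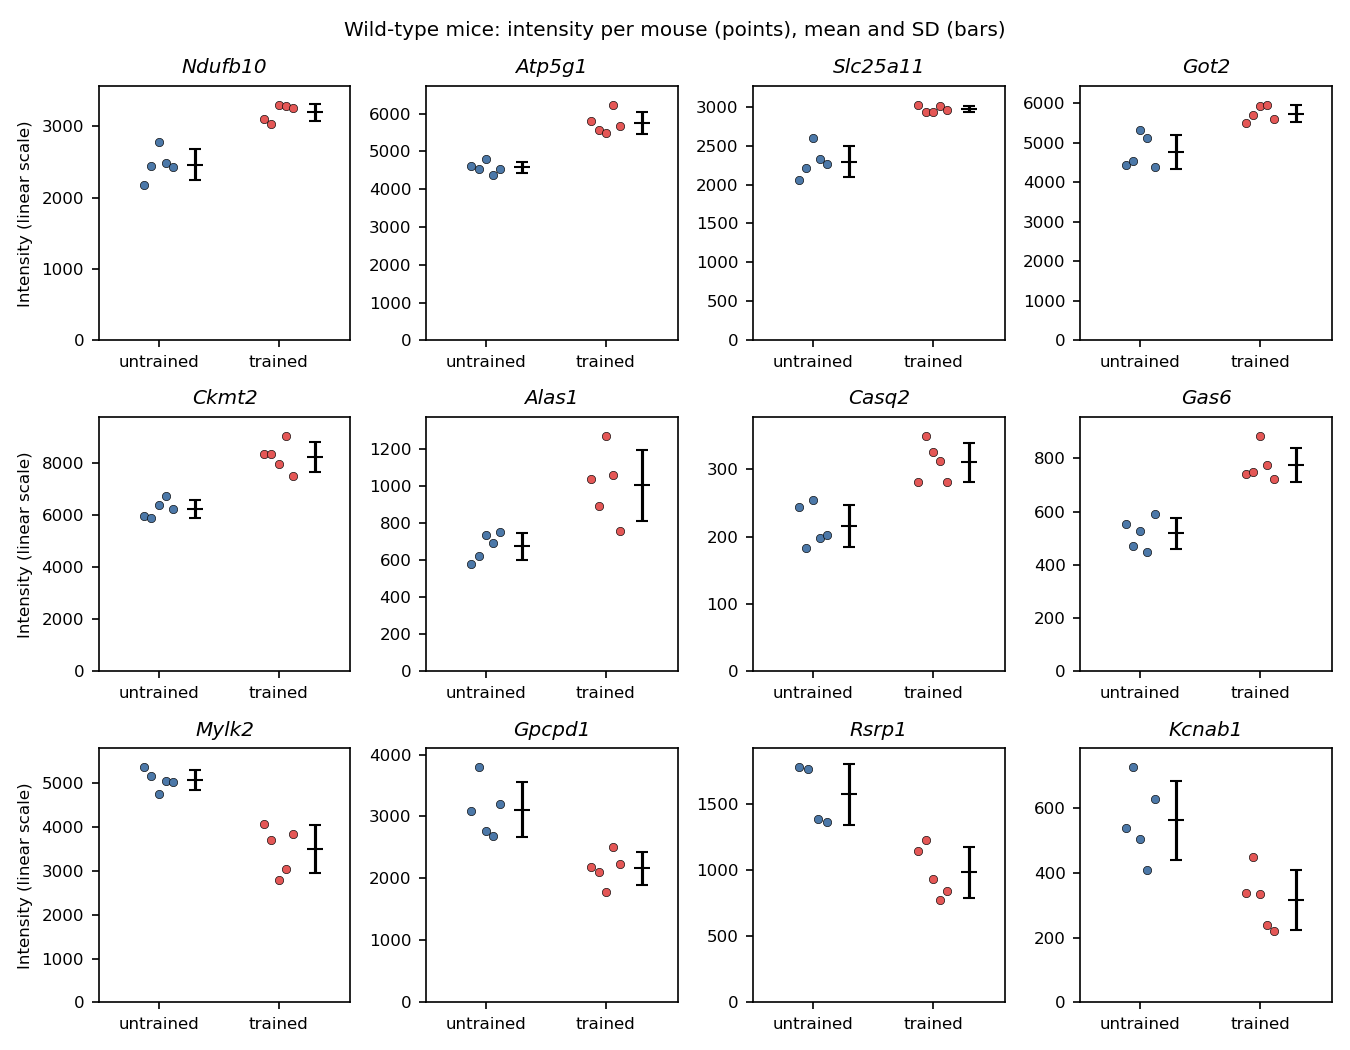
Intensity of 12 genes in each wild-type mouse on a linear axis starting at 0; blue points are the 5 untrained and red points the 5 trained mice, and the black mark and bar give the mean and SD. In the upper 8 panels, every trained mouse lies above every untrained mouse; in the lower row trained mice are lower, with overlap for Kcnab1 and with 4 untrained values for Rsrp1.

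Since nearly all respiratory chain members had differences above 0, the sequence upstream of their start sites was examined for motifs linked to mitochondrial gene control. Promoter windows (250 bases before to 50 after the start, RefSeq, GRCm38.p6) were found for 61 of the 73 tested respiratory chain and ATP synthase genes and for 6828 of all 8486 tested genes. The NRF1 motif, a palindrome of GCGC and GCGC with any 2 bases between them that nuclear respiratory factor 1 is known to bind, was present in 17 of the 61 (27.87%), beside 996 of the 6828 tested genes (14.59%) and 6.23% of all 32851 windows in the table. A gene was counted if any of its windows held the motif, whereas the 6.23% is a share of single windows. Between lists, the NRF1 motif was present in 6 of 30 complex I genes with a window (20%). It was present in 4 of 17 such genes for complexes II to IV (23.53%) and in 7 of 14 for ATP synthase (50%). It was also present in 6 of 17 genes with a window of the protein breakdown list (35.29%), a list in which most genes had differences below 0. The YY1 motif AANATGGCG, read on both strands, was present in 16.39% of the 61 and 6.02% of tested genes. The GABP motif CCGGAAGTG was found in 3.28% and 4.77%, the ERR motif TNAAGGTCA in 3.28% and 0.89%, and the E-box CACGTG in 9.84% and 12.08%. These are matches of letters and not measured binding, and no binding data were used here. Stretches of 250 bases directly upstream of the start are printed 5' to 3' on the strand of the gene, with matches in capitals. They show the complex I gene of largest difference (Ndufb10, no match), a complex I gene with an NRF1 match whose trained values did not overlap the untrained ones (Ndufab1), a complex IV gene with 2 matches and no clear difference (Cox6a1), and the fructose-bisphosphatase gene that was lower in trained mice (Fbp2, an E-box).
Ndufb10: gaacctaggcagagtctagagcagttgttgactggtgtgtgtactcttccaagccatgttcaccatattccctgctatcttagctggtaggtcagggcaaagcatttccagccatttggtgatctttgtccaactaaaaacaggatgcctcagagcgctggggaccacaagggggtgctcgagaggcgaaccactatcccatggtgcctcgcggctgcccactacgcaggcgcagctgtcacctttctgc
Ndufab1: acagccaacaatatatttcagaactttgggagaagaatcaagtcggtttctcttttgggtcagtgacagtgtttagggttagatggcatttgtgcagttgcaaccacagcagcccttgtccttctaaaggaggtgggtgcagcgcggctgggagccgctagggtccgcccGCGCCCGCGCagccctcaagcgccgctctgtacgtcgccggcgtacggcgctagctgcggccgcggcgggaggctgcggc
Cox6a1: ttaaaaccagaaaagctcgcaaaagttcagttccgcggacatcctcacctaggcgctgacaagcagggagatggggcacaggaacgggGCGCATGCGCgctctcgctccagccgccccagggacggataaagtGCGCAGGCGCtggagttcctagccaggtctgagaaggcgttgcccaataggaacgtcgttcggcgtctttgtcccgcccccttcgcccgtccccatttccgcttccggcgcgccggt
Fbp2: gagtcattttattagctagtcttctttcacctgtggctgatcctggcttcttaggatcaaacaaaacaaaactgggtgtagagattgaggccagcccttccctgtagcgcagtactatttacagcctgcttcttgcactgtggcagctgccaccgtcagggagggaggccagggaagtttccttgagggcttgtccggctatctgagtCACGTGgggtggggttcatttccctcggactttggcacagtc
The match starts 80 bases before the start site in Ndufab1, 162 and 117 bases before it in Cox6a1, and 42 bases before it in Fbp2. Ndufb10 lies on chr17:24724424-24724673 (minus strand), Ndufab1 on chr7:122101849-122102098 (minus strand), Cox6a1 on chr5:115348959-115349208 (minus strand) and Fbp2 on chr13:62858401-62858650 (minus strand), all in GRCm38.p6.

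Complex I, which takes electrons from NADH into the chain, had the most members higher in trained mice among the respiratory chain lists. Of 37 listed subunits, 33 were tested, and 32 of these had a difference above 0. At an unadjusted p under 0.05, 17 were higher and 0 lower, beside 5.2% and 2.89% of all genes, and the median difference was 0.15. In 8 subunits, beside 2.04% of all genes, all trained mice exceeded all untrained mice: Ndufb10, Ndufc2, Ndufb7, Ndufa8, Ndufs5, Ndufab1, Ndufb9 and Ndufb5. Without mouse wtt-137 the median was 0.14, with 14 members higher at an unadjusted p under 0.05, beside 4.24% of all genes. Per mouse, the mean deviation of the 33 genes from the average of the 10 mice ran from -0.16 to -0.0126 in the untrained and from -0.0006 to 0.11 in the trained group, ranges that lay close but did not overlap.

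Ndufb10, an accessory subunit of the membrane arm, had the largest difference in complex I. Its intensities were 2181, 2437, 2440, 2483 and 2778 in untrained and 3039, 3101, 3252, 3281 and 3301 in trained mice. The lowest trained mouse thus stood above the highest untrained one, with means of 2464 ± 212 and 3195 ± 117 (SD, n = 5 each). The difference was 0.37 ± 0.08 (SE; limma adjusted p = 0.181). Ndufb9, another accessory subunit, had a smaller difference with less scatter, from 5291 to 5649 in untrained and from 5978 to 6357 in trained mice. Its difference was 0.18 ± 0.05 (SE; limma adjusted p = 0.244), and its second probe set gave 0.19. Ndufab1, whose upstream sequence is printed above and which also serves as the mitochondrial acyl carrier protein, measured 2842 to 3286 in untrained and 3359 to 3546 in trained mice, a difference of 0.18 ± 0.07 (SE). Ndufb2 was the lone member below 0, at -0.03 ± 0.07 (SE).

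Complexes II to IV carry electrons from succinate and from complex I to oxygen. Of 27 listed genes, 25 were tested and Cox7c was too dim. Of these, 23 were above 0, with a median of 0.10. At an unadjusted p under 0.05, 11 were higher and 0 lower, beside 5.2% and 2.89% of all genes. Without mouse wtt-137, 6 were higher at that threshold, beside 4.24% of all genes, and the median was 0.11. Sdhd, a membrane anchor of succinate dehydrogenase, led the list. It measured 1836, 2010, 2140, 2276 and 2468 in untrained and 2664, 2687, 2736, 2750 and 2774 in trained mice. The trained values lay within a narrow band above all untrained values, and the difference was 0.34 ± 0.09 (SE; limma adjusted p = 0.244). Uqcrq, a small subunit of complex III, went from 3448 ± 196 to 4038 ± 325 (SD, n = 5 each), a difference of 0.22 ± 0.08 (SE; limma adjusted p = 0.385), while its other 2 probe sets gave -0.03 and 0.14. Cox7a1, the muscle isoform of a cytochrome oxidase subunit, differed by 0.19 ± 0.07 (SE) without overlap. Cox6a1 scattered widely, from 542 to 2236 in untrained and from 788 to 1811 in trained mice, and its difference of 0.12 was smaller than its SE of 0.39.

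All 15 tested ATP synthase genes of 16 listed were above 0. At an unadjusted p under 0.05, 5 were higher and 0 lower, beside 5.2% and 2.89% of all genes, and the median was 0.10. Without mouse wtt-137, 3 remained at that threshold, beside 4.24% of all genes. Atp5g1, which encodes the c subunit of the rotor ring, measured 4382, 4542, 4548, 4605 and 4806 in untrained and 5478, 5568, 5661, 5792 and 6232 in trained mice. No trained mouse came near the untrained range, and the difference was 0.32 ± 0.07 (SE; limma adjusted p = 0.181). Atp5g3, another gene for the same c subunit, also separated the groups, but with a smaller difference of 0.12 ± 0.05 (SE). Atp5h, a subunit of the peripheral stalk, differed by 0.19 ± 0.06 (SE; limma adjusted p = 0.343), and 1 trained mouse at 4436 lay inside the untrained range of 4122 to 4467.

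Enzymes that feed the chain were higher to a similar degree. Of 19 listed genes of the tricarboxylic acid cycle and the pyruvate dehydrogenase complex, 17 were tested and 15 were above 0, with a median of 0.11. At an unadjusted p under 0.05, 7 were higher and 0 lower, beside 5.2% and 2.89% of all genes. Without mouse wtt-137, all 17 were above 0 and 7 were again at that threshold. Pdhb, the beta subunit of pyruvate dehydrogenase, measured 2219, 2446, 2494, 2547 and 2664 in untrained and 2705, 2818, 2904, 2964 and 3083 in trained mice. The groups did not overlap, and the difference was 0.22 ± 0.06 (SE; limma adjusted p = 0.244). Dlat, the acetyltransferase of the same complex, had the largest difference of the list at 0.43 ± 0.15 (SE; limma adjusted p = 0.374), but mouse WTT-144 at 1021 fell below the 2 highest untrained mice. Dlst, the succinyltransferase of the oxoglutarate dehydrogenase complex, differed by 0.30 ± 0.08 (SE; limma adjusted p = 0.253) without overlap, but by 0.01 in its second probe set. Citrate synthase (Cs), often used as a marker of mitochondrial content, measured 4381 ± 230 in untrained and 4667 ± 272 in trained mice (SD, n = 5 each). Its groups overlapped, with a difference of 0.09 ± 0.05 (SE; limma adjusted p = 0.724), and 0.13 and 0.21 in its other 2 probe sets.

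The malate-aspartate shuttle, which moves cytosolic reducing equivalents into mitochondria, was not counted as a list of its own. The rule named 3 of its genes, and 1 more, Got1, was added after its values were seen. Slc25a11 is counted in the list of mitochondrial ribosomes, import and carriers, Mdh1 in the tricarboxylic acid cycle list and Got2 in the amino acid list. Slc25a11, the oxoglutarate carrier, measured 2058, 2210, 2267, 2328 and 2601 in untrained mice. In trained mice it measured 2936, 2936, 2959, 3009 and 3022, so that the trained values were both higher and much closer together. The difference was 0.37 ± 0.07 (SE; limma adjusted p = 0.165). Got2, the mitochondrial aspartate aminotransferase, had means of 4761 ± 431 and 5740 ± 204 (SD, n = 5 each) without overlap, a difference of 0.27 ± 0.06 (SE; limma adjusted p = 0.181), and 0.40 by its second probe set. Mdh1, the cytosolic malate dehydrogenase, measured 4775 to 6063 in untrained and 6313 to 7192 in trained mice, a difference of 0.28 ± 0.08 (SE; limma adjusted p = 0.246), while its other 3 probe sets ran from -0.03 to 0.26. Got1, the cytosolic aspartate aminotransferase, overlapped between the groups, with a difference of -0.03 ± 0.19 (SE) that was 0.12 without mouse wtt-137. Ckmt2, the sarcomeric mitochondrial creatine kinase that passes the phosphate of new ATP to creatine, measured 5884, 5969, 6259, 6410 and 6734 in untrained and 7523, 7978, 8353, 8354 and 9064 in trained mice. All trained mice were above all untrained mice, and the difference was 0.40 ± 0.09 (SE; limma adjusted p = 0.181). Ckm, the cytosolic muscle creatine kinase, differed by 0.01 ± 0.02 (SE).

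Genes for mitochondrial ribosomes, import and inner membrane carriers numbered 41 tested of 43 listed. Of these, 35 were above 0, with a median of 0.13. At an unadjusted p under 0.05, 19 were higher and 0 lower, beside 5.2% and 2.89% of all genes. Without mouse wtt-137, 15 were higher at that threshold, beside 4.24% of all genes, and the median was 0.11. In 9 genes, beside 2.04% of all genes, all trained mice lay above all untrained mice. The mean deviation per mouse ran from -0.13 to -0.02 in untrained and from 0.01 to 0.10 in trained mice. Mrps12, a protein of the small mitochondrial ribosomal subunit, measured 370 to 440 in untrained and 475 to 607 in trained mice, a difference of 0.29 ± 0.07 (SE; limma adjusted p = 0.234). Mrpl34, of the large subunit, differed by 0.40 ± 0.10 (SE; limma adjusted p = 0.244), from 462 ± 36.5 to 632 ± 81.9 (SD, n = 5 each). Mrpl19, a large-subunit protein outside the list, was dim, at 106 to 151 in untrained and 168 to 213 in trained mice, and differed by 0.35 ± 0.08 (SE; limma adjusted p = 0.181). Timm44, which anchors the import motor to the inner membrane, differed by 0.28 ± 0.07 (SE), and by 0.16 and 0.26 in its other 2 probe sets. Cytosolic ribosomal protein genes lay closer to 0, with 16 of 20 tested genes above 0, 0 higher and 1 lower at an unadjusted p under 0.05, and a median of 0.04. Their mean deviation was 0.25 in mouse WTT-144 and from -0.09 to -0.02 in the other trained mice. Untrained mice ran from -0.09 to 0.02.

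Heme is the prosthetic group of cytochromes and myoglobin, and its synthesis starts in the mitochondrion with Alas1, the rate-limiting enzyme. Alas1 measured 581, 623, 692, 735 and 751 in untrained and 760, 894, 1040, 1061 and 1273 in trained mice. The lowest trained value, in mouse WTT-144, was only just above the highest untrained one. The difference was 0.52 ± 0.10 (SE; limma adjusted p = 0.145), and the second probe set of Alas1 gave 0.43. Without mouse WTT-144 the difference was 0.61 (limma adjusted p = 0.0236), and without mouse wtt-137 it was 0.43. Of 19 listed heme and iron genes, 16 were tested, 12 were above 0, and 4 were higher and 0 lower at an unadjusted p under 0.05, beside 5.2% and 2.89% of all genes. Slc40a1, the iron exporter ferroportin, measured 338 to 439 in untrained and 466 to 538 in trained mice, a difference of 0.28 ± 0.09 (SE; limma adjusted p = 0.325), but its second probe set gave -0.18. Tfrc, the transferrin receptor, measured 180, 186, 237, 311 and 341 in untrained and 322, 388, 434, 492 and 1602 in trained mice. Mouse wtt-137 held the value of 1602, and the difference of 0.97 ± 0.40 (SE; limma adjusted p = 0.527) was 0.60 without it, while the second probe set of Tfrc gave 0.17.

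**Figure D2:**
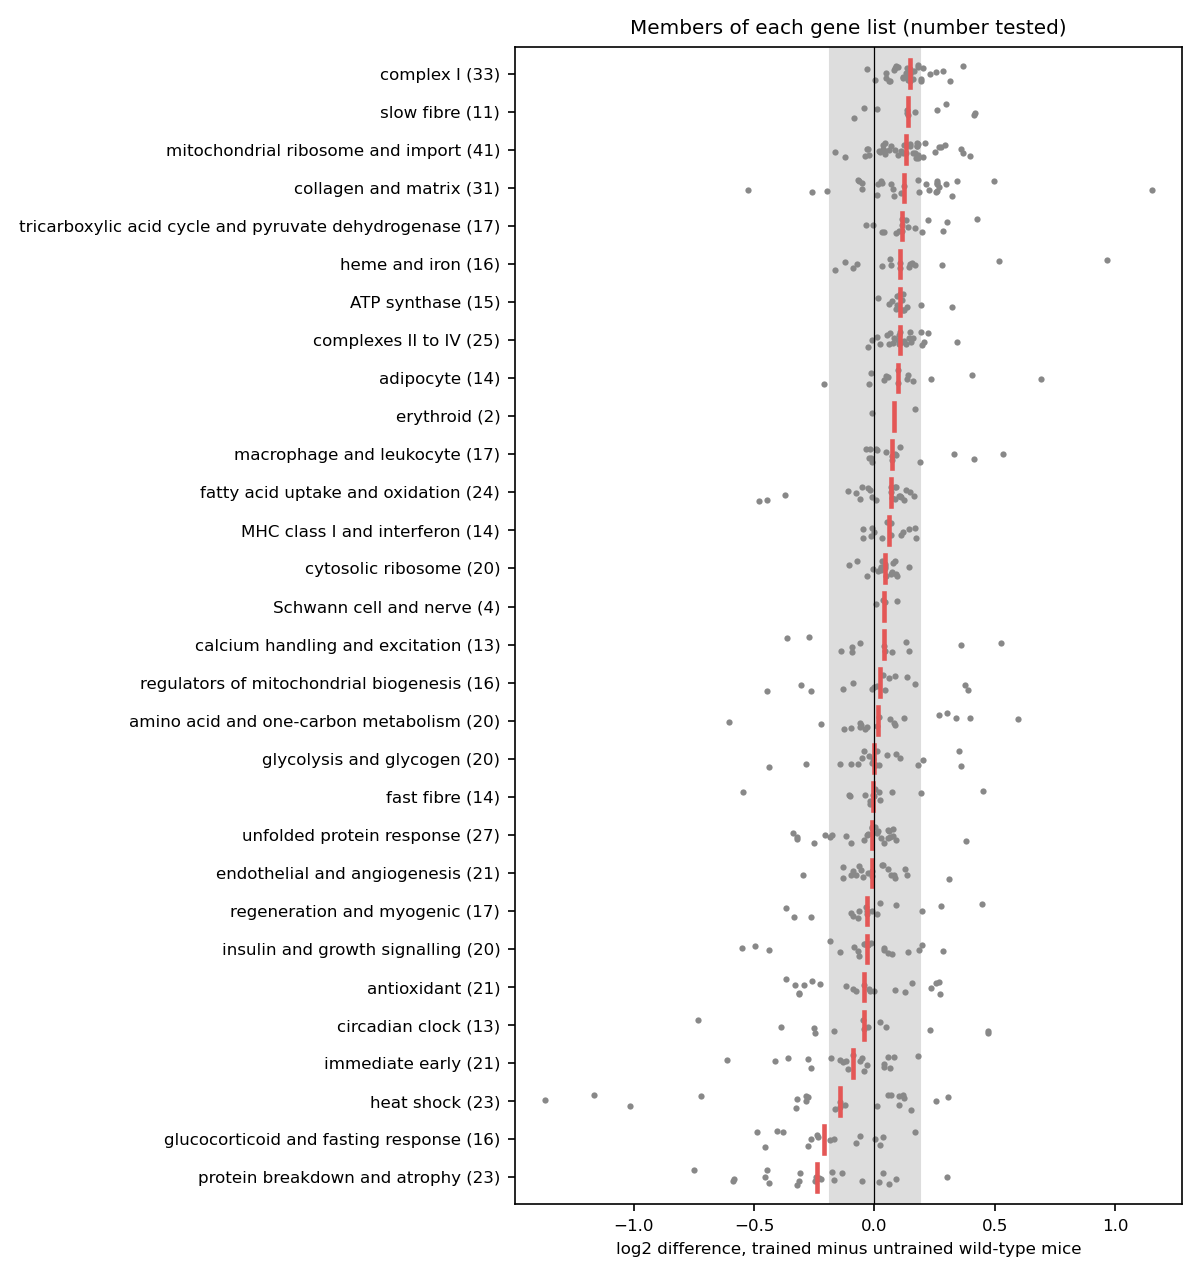
Each grey point is 1 tested gene of a list, placed by its log2 difference (trained minus untrained wild-type mice) on the horizontal axis, and each red mark is the list's median; the number tested is in brackets. The grey band spans the 5th to 95th percentile of all genes, -0.19 to 0.19; complex I sits at a median of 0.15 and the protein breakdown list at -0.24.

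Contractile genes of fast fibres lay on both sides of 0. Of 14 tested fast-fibre genes of 15 listed, 6 were above 0, 1 was higher and 3 were lower at an unadjusted p under 0.05 (5.2% and 2.89% of all genes), and the median was 0.00. Mylk2, the skeletal muscle myosin light chain kinase, measured 4754, 5033, 5038, 5161 and 5371 in untrained and 2797, 3036, 3708, 3833 and 4070 in trained mice. Every trained mouse was below every untrained mouse, and the difference was -0.54 ± 0.11 (SE; limma adjusted p = 0.165). Pvalb, the calcium buffer parvalbumin of fast fibres, measured 15045 ± 325 and 13974 ± 629 (SD, n = 5 each) without overlap, a difference of -0.11 ± 0.03 (SE; limma adjusted p = 0.305). Actn3, the fast-fibre alpha-actinin, differed by -0.10 ± 0.05 (SE) with overlap, from -0.13 to -0.06 with 1 mouse left out in turn.

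The fast myosin heavy chains differed in how far they stood apart between the groups. Myh2 (type IIa) measured 4187, 4712, 7260, 7537 and 7598 in untrained and 7995, 8051, 8471, 8486 and 8580 in trained mice. The groups did not overlap, yet 2 untrained mice sat far below the other 3, so the SE was wide, with a difference of 0.45 ± 0.23 (SE; limma adjusted p = 0.689). Myh1 (type IIx) measured 6818 to 7487 in untrained and 7570 to 8351 in trained mice, a difference of 0.19 ± 0.08 (SE; limma adjusted p = 0.486), and 0.12 in its second probe set. The probe set that gave 0.19 carries a name that marks it as able to bind several transcripts, unlike those of Myh2 and Myh4. Myh4 (type IIb), the fastest, measured 14101 ± 408 and 14021 ± 140 (SD, n = 5 each), a difference of -0.01 ± 0.03 (SE; limma adjusted p = 0.992). Whether these 3 differences differ from each other was not tested.

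Slow-fibre genes varied several-fold within each group. Of 11 listed and tested, 9 were above 0, 2 were higher at an unadjusted p under 0.05 (5.2% of all genes) and the median was 0.14. Myh7, the slow myosin heavy chain, measured 396, 722, 1056, 1300 and 2797 in untrained and 732, 795, 1189, 1458 and 2122 in trained mice. The ranges coincided, with a difference of 0.17 ± 0.37 (SE; limma adjusted p = 0.984) that turned to -0.14 without mouse WTUT-142 and to -0.04 without mouse WTT-141. The mean deviation of the list ran from -0.67 to 0.58 in untrained mice alone. Casq2 and Mb stood out from this scatter. Casq2 measured 183, 198, 203, 244 and 254 in untrained and 281, 282, 313, 326 and 350 in trained mice. All trained mice were above all untrained mice, a difference of 0.42 ± 0.08 (SE; limma adjusted p = 0.145). Mb, myoglobin, the oxygen store of oxidative fibres, went from 10217 ± 900 to 12246 ± 1122 (SD, n = 5 each), a difference of 0.26 ± 0.10 (SE; limma adjusted p = 0.476) with overlap. In whole muscle, fewer fibres of a type and less RNA per fibre cannot be told apart.

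Calcium release and excitation genes were mixed, with 7 of 13 tested genes above 0 (17 listed), 1 higher and 3 lower at an unadjusted p under 0.05, beside 5.2% and 2.89% of all genes. Ryr1, the calcium release channel, measured 9706 to 10523 in untrained and 9193 to 9633 in trained mice, a difference of -0.09 ± 0.03 (SE; limma adjusted p = 0.37). Of the beta subunits of the sodium pump, Atp1b2 differed by -0.36 ± 0.14 (SE; limma adjusted p = 0.475) and Atp1b1 by 0.53 ± 0.21 (SE; limma adjusted p = 0.515), both with overlap. These values depended on the probe set: the second one of Atp1b2 gave -0.17, and the other 4 of Atp1b1 ran from -0.06 to 0.63. Kcnab1, a beta subunit of voltage-gated potassium channels, measured 408, 506, 539, 630 and 728 in untrained and 220, 238, 336, 339 and 449 in trained mice. Only mouse wtt-134 lay within the untrained range, and the difference was -0.73 ± 0.17 (SE; limma adjusted p = 0.216), with -0.62 by a second probe set.

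Genes of glycolysis and glycogen lay on both sides of 0, with 10 of 20 tested genes (23 listed) above 0, 2 higher and 3 lower at an unadjusted p under 0.05 (5.2% and 2.89% of all genes), and a median of 0.00. Fbp2, the muscle fructose-bisphosphatase that runs against glycolysis, measured 247, 291, 327, 353 and 356 in untrained and 152, 213, 232, 240 and 241 in trained mice. All trained mice were below all untrained mice, a difference of -0.44 ± 0.11 (SE; limma adjusted p = 0.244). Ugp2, which makes the UDP-glucose used for glycogen, differed by -0.28 ± 0.11 (SE; limma adjusted p = 0.486) with overlap, and its other 4 probe sets gave -0.31 to -0.26. Pygm, the muscle glycogen phosphorylase, differed by -0.07 ± 0.03 (SE). On the higher side, Ldhb, the lactate dehydrogenase subunit of oxidative tissue, differed by 0.36 ± 0.17 (SE) and Gbe1, the glycogen branching enzyme, by 0.35 ± 0.17 (SE). The glucose transporter Slc2a4 (-0.04 ± 0.06, SE) and hexokinase Hk2 (-0.02 ± 0.34, SE) lay near 0.

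Genes of fatty acid uptake and oxidation had a small positive median of 0.07, but none of the 24 tested (27 listed) was higher at an unadjusted p under 0.05, and 1 was lower, beside 5.2% and 2.89% of all genes. That gene was Acot2, a mitochondrial acyl-CoA thioesterase, which measured 202, 230, 250, 256 and 275 in untrained and 122 to 183 in trained mice. Every trained mouse was lower, with a difference of -0.48 ± 0.15 (SE; limma adjusted p = 0.294). Ucp3, an inner membrane uncoupling protein, differed by -0.37 ± 0.22 (SE; limma adjusted p = 0.724) with overlap, and by -0.24 without mouse wtt-137. Pdk4, the kinase that switches off pyruvate dehydrogenase, measured 7907, 8492, 8961, 8992 and 9019 in untrained and 3441, 6290, 7290, 7747 and 8331 in trained mice. Mouse wtt-137 held the lowest value, and the difference of -0.45 ± 0.30 (SE; limma adjusted p = 0.791) was -0.23 without it. Acadvl, the first dehydrogenase for long-chain acyl-CoA, had the highest difference of the list at 0.16 ± 0.13 (SE), from 0.08 to 0.22 with 1 mouse left out in turn.

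The regulators of mitochondrial biogenesis lay on both sides of 0. Of 16 tested genes (19 listed, with Ppard and Sirt1 too dim), 9 were above 0, 2 were higher and 2 lower at an unadjusted p under 0.05, beside 5.2% and 2.89% of all genes. Ppargc1a, the coactivator PGC-1 alpha, measured 314, 851, 1338, 1481 and 1568 in untrained and 797, 904, 911, 1006 and 1339 in trained mice. The difference was 0.00 ± 0.37 (SE; limma adjusted p = 1), the untrained mice spanned a wider range than the trained ones, and its sign depended on scaling. Pprc1, the PGC-1-related coactivator, was lower, at 255, 310, 312, 373 and 428 in untrained and 160, 214, 214, 250 and 312 in trained mice, a difference of -0.44 ± 0.12 (SE; limma adjusted p = 0.253). Gabpa, a DNA-binding subunit of nuclear respiratory factor 2, differed by -0.26 ± 0.11 (SE; limma adjusted p = 0.5) with overlap, and by -0.07 in its second probe set. Nrf1, whose motif is described above, differed by 0.01 ± 0.06 (SE). On the higher side, Sirt3, the mitochondrial deacetylase, measured 166, 198, 199, 226 and 240 in untrained and 256, 276, 283, 304 and 325 in trained mice without overlap. Its difference was 0.39 ± 0.11 (SE; limma adjusted p = 0.27). Esrra, the nuclear receptor ERR alpha, differed by 0.17 ± 0.07 (SE; limma adjusted p = 0.567), and Tfam, the mitochondrial DNA packaging factor, by 0.13 ± 0.11 (SE), from 0.07 to 0.18 with 1 mouse left out in turn.

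Antioxidant genes lay on both sides of 0. Of 21 tested (24 listed), 7 were above 0, 2 were higher and 2 lower at an unadjusted p under 0.05, beside 5.2% and 2.89% of all genes. Sod2, the superoxide dismutase of the mitochondrial matrix, measured 2336, 2338, 2438, 2562 and 2738 in untrained and 2796, 2937, 3000, 3125 and 3176 in trained mice. The groups did not overlap, a difference of 0.27 ± 0.07 (SE; limma adjusted p = 0.257), while the other 2 probe sets gave 0.0050 and 0.30. Prdx2, a peroxiredoxin, differed by 0.27 ± 0.09 (SE; limma adjusted p = 0.375) without overlap. Gsr, glutathione reductase, was lower in all trained mice, at 420 ± 34.4 against 321 ± 41.2 (SD, n = 5 each), a difference of -0.33 ± 0.10 (SE; limma adjusted p = 0.286). Gstm1, a glutathione transferase, differed by -0.23 ± 0.10 (SE), and its other 3 probe sets ran from -0.22 to -0.08. Park7, which protects cells from oxidative stress, measured 3332 to 3578 in untrained and 2832, 2906, 2912, 2933 and 3364 in trained mice. Mouse WTT-144 alone reached the untrained range, and the difference was -0.21 ± 0.05 (SE; limma adjusted p = 0.244), with -0.14 by a second probe set.

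Transcripts of protein breakdown were mostly lower in trained mice, and the size of the difference depended on mouse wtt-137. Of 23 tested genes (28 listed), 5 were above 0, 1 was higher and 2 lower at an unadjusted p under 0.05, beside 5.2% and 2.89% of all genes. The median was -0.24 with mouse wtt-137 and -0.09 without it. The mean deviation of the list was -0.72 in mouse wtt-137 and lay between -0.23 and 0.27 in the other 4 trained mice, against -0.05 to 0.27 in untrained mice. Cdkn1a, the cell cycle inhibitor p21 that is induced by glucocorticoids and muscle disuse, measured 1962, 1984, 2381, 2971 and 3295 in untrained and 692, 1198, 1382, 2149 and 2450 in trained mice. The ranges overlapped, and the difference of -0.75 ± 0.35 (SE; limma adjusted p = 0.598) was -0.50 without mouse wtt-137. Fbxo32, the atrophy ubiquitin ligase atrogin-1, measured 5165 to 7171 in untrained mice and 1149 in mouse wtt-137 against 4340 to 6184 in the other trained mice, so that the difference of -0.58 ± 0.43 (SE) was -0.15 without it. Foxo3, a transcription factor of the same programme, differed by -0.31 ± 0.20 (SE; limma adjusted p = 0.784) and by -0.16 without mouse wtt-137.

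Of the 3 genes of autophagy described here, which were not counted as a list of their own, 2 separated the groups, in opposite directions. Both belong to the protein breakdown list above. Map1lc3a is its 1 member higher, and Sqstm1 is 1 of its 2 members lower, at an unadjusted p under 0.05. Sqstm1, the cargo receptor p62, measured 4821, 5481, 5527, 5667 and 5779 in untrained and 2631, 4042, 4477, 4508 and 4659 in trained mice. All trained mice were lower, also apart from mouse wtt-137 at 2631, and the difference of -0.44 ± 0.14 (SE; limma adjusted p = 0.307) was -0.30 without that mouse. Map1lc3a, one of the LC3 proteins of the autophagosome membrane, measured 2239, 2380, 2387, 2439 and 2479 in untrained and 2514, 2856, 2931, 2943 and 3594 in trained mice. There was no overlap between the groups, with a difference of 0.30 ± 0.08 (SE; limma adjusted p = 0.244). Map1lc3b, its relative, overlapped between the groups, with a difference of -0.22 ± 0.21 (SE) that was -0.03 without mouse wtt-137.

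**Figure D3:**
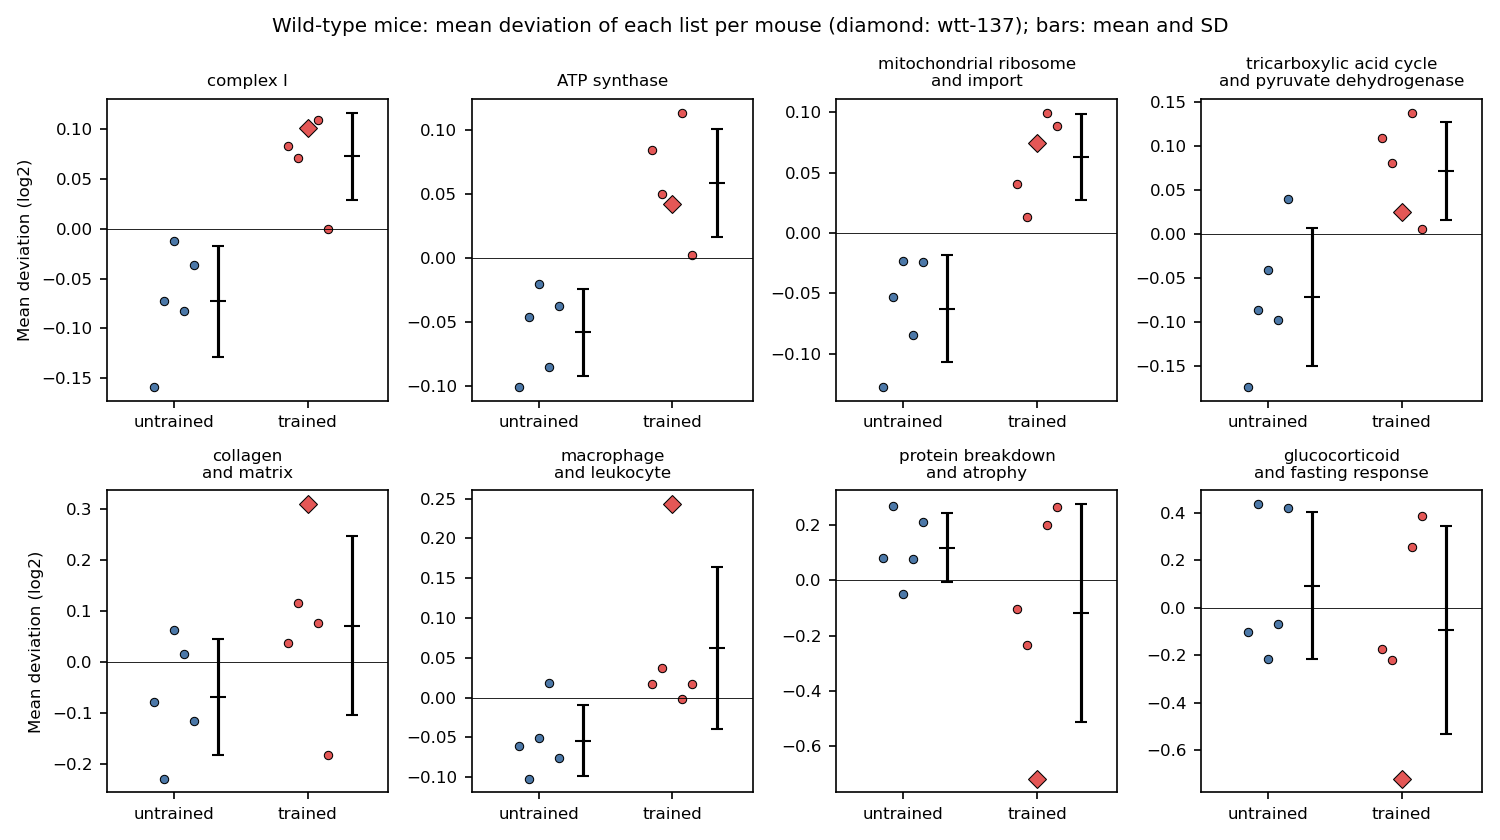
Mean deviation (log2) of each list's tested genes from the average of the 10 wild-type mice, 1 point per mouse; blue is untrained, red trained, the diamond is mouse wtt-137, and the black mark and bar give the mean and SD of 5 mice. The complex I, ATP synthase and mitochondrial ribosome lists separate the groups; mouse wtt-137 is the lowest trained mouse at -0.72 in both breakdown and glucocorticoid lists and the highest at 0.31 in collagen and matrix.

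Targets of glucocorticoids and fasting also depended on that mouse. Of 16 tested genes (17 listed), 4 were above 0, 0 were higher and 1 lower at an unadjusted p under 0.05 (5.2% and 2.89% of all genes), and the median of -0.21 was -0.07 without mouse wtt-137. Cebpb, a transcription factor of this response, differed by -0.40 ± 0.19 (SE; limma adjusted p = 0.622), and by -0.24 without that mouse. Txnip, the thioredoxin-binding brake on glucose uptake, differed by -0.49 ± 0.25 (SE; limma adjusted p = 0.675) and by -0.41 without it. In both genes untrained mice WTUT-135 and WTUT-142 were the highest, at 5019 and 4893 for Cebpb and at 5651 and 5229 for Txnip, so the spread was not confined to trained mice.

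Clock genes were uneven between mice. Of 13 tested genes (19 listed, 4 of them too dim), 5 were above 0, 2 were higher and 1 lower at an unadjusted p under 0.05, beside 5.2% and 2.89% of all genes. Arntl (Bmal1), an activator of the clock, measured 222, 228, 266, 486 and 522 in untrained and 58.8, 114, 157, 261 and 368 in trained mice. The lowest value was that of mouse wtt-137, and the difference of -0.73 ± 0.29 (SE; limma adjusted p = 0.483) was -0.51 without it. Dbp, an output gene that peaks out of phase with Arntl, stood at 727 in mouse wtt-137 and between 74.0 and 127 in the other 9 mice. Its difference of 0.47 ± 0.45 (SE; limma adjusted p = 0.911) was 0.02 without mouse wtt-137. Tef differed by 0.23 ± 0.08 (SE; limma adjusted p = 0.39) and Nr1d2 by 0.47 ± 0.19 (SE; limma adjusted p = 0.511); without mouse wtt-137 these were 0.20 and 0.37, and a second probe set of Nr1d2 gave -0.01. The labels give no time of day for tissue collection, and its part in these values was not tested.

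Of the tested immediate early, heat shock and unfolded protein response genes, Syvn1 alone separated the groups. Of 21 tested immediate early genes (24 listed), 6 were above 0 and 0 passed an unadjusted p under 0.05 in either direction (8.08% of all genes). Jun, a subunit of the AP-1 transcription factor, differed by -0.41 ± 0.22 (SE; limma adjusted p = 0.711), by -0.22 without mouse WTT-141 and by -0.05 in its second probe set. Junb, its relative, differed by -0.61 ± 0.38 (SE; limma adjusted p = 0.759). Mouse WTUT-138 was the lowest of its group for Junb at 205 against 917 to 1487, and the difference was -1.05 without it. Of 23 tested heat shock genes (26 listed), 10 were above 0, 1 was higher and 2 lower at an unadjusted p under 0.05, beside 5.2% and 2.89% of all genes. Hspa8, the constitutive chaperone, differed by -0.16 ± 0.06 (SE; limma adjusted p = 0.445) and Bag3, its co-chaperone in the removal of damaged proteins, by -0.32 ± 0.13 (SE; limma adjusted p = 0.499). Mouse WTUT-142 held the highest Bag3 value, 3972 against 2087 to 2971 in the other untrained mice, and the Bag3 difference was -0.19 without it. Hspa1b, an inducible Hsp70 gene named after its values were seen, spread most. It measured 2214, 3013, 3140, 6714 and 7255 in untrained and 366, 443, 2111, 3284 and 6009 in trained mice, a difference of -1.37 ± 0.77 (SE; limma adjusted p = 0.716) that ran from -1.85 to -0.90 with 1 mouse left out in turn. Without mouse wtt-137, 7 of the 23 heat shock genes were lower at an unadjusted p under 0.05, beside 2.03% of all genes without that mouse. Of 27 tested unfolded protein response genes (30 listed), 13 were above 0 and 2 were lower at that threshold (2.89% of all genes). They were Syvn1, a ubiquitin ligase of the endoplasmic reticulum with 428 to 478 in untrained and 349 to 410 in trained mice, at -0.18 ± 0.05 (SE; limma adjusted p = 0.301), and Atf4, a stress transcription factor, at -0.25 ± 0.11 (SE; limma adjusted p = 0.541).

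Collagen and matrix genes were higher in most cases, with 24 of 31 tested genes (34 listed, Lum and Postn too dim) above 0, 5 higher and 0 lower at an unadjusted p under 0.05 (5.2% and 2.89% of all genes), and a median of 0.12. Without mouse wtt-137 the list had 5 higher, 2 lower and a median of 0.11. Col3a1, the collagen III chain of growing matrix, measured 174, 268, 280, 563 and 629 in untrained and 338, 752, 802, 1083 and 1937 in trained mice. Mouse WTT-144 lay inside the untrained range and mouse wtt-137 held the highest value. The difference of 1.15 ± 0.39 (SE; limma adjusted p = 0.372) was 0.87 without mouse wtt-137. Timp3, an inhibitor of metalloproteinases bound to the matrix, measured 790, 831, 859, 876 and 969 in untrained and 1005, 1010, 1100, 1135 and 1140 in trained mice. Trained values lay wholly apart, with a difference of 0.30 ± 0.09 (SE; limma adjusted p = 0.276), with 0.22 to 0.32 from 3 further probe sets. Fbln2, a basement membrane glycoprotein, differed by 0.26 ± 0.09 (SE; limma adjusted p = 0.37). Serpinh1, the collagen chaperone Hsp47, was on the other side at -0.53 ± 0.33 (SE), at -0.80 without mouse wtt-137 and at -0.28 in its second probe set. The summed intensity of the 5 fibroblast markers on the array, the dim Lum included, ranged from 3695 to 6173 in untrained and from 4277 to 6274 in trained mice. Mouse wtt-137 had no value for Col1a1 and Col1a2, so its sum lacks them. The part of fibroblast content in these values was not tested.

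Mgp, Gas6 and Palmd, also among the 10 higher genes of smallest p, are members of none of the lists. Mgp measured 598, 616, 642, 676 and 765 in untrained and 687, 872, 940, 1016 and 1030 in trained mice. Mouse WTT-144 alone overlapped, and the difference of 0.42 ± 0.09 (SE; limma adjusted p = 0.181) was 0.51 without it (limma adjusted p = 0.0236). Without mouse wtt-137 the difference was 0.38. Gas6 measured 449, 469, 526, 554 and 590 in untrained and 722, 741, 750, 773 and 884 in trained mice. The groups were well apart, a difference of 0.53 ± 0.12 (SE; limma adjusted p = 0.181). Palmd, a paralemmin-related protein, had narrow groups, 257 ± 8.67 and 328 ± 20.7 (SD, n = 5 each), and differed by 0.28 ± 0.06 (SE; limma adjusted p = 0.181).

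Genes of other cell types were examined beside these. Of 17 tested macrophage and leukocyte genes (22 listed, 5 too dim, Cd68 among them), 12 were above 0 and 3 were higher at an unadjusted p under 0.05 (5.2% of all genes). Lyz2, lysozyme of macrophages and neutrophils, measured 286, 314, 349, 392 and 392 in untrained and 442, 475, 507, 526 and 725 in trained mice. The groups did not overlap, a difference of 0.53 ± 0.15 (SE; limma adjusted p = 0.257) that was 0.43 without mouse wtt-137. The complement genes C1qa and C1qc differed by 0.42 ± 0.14 (SE; limma adjusted p = 0.349) and 0.33 ± 0.11 (SE; limma adjusted p = 0.363), with overlap. Csf1r (0.01 ± 0.07, SE) and Adgre1 (-0.02 ± 0.08, SE), both defining macrophage genes, lay near 0. The summed intensity of the 5 macrophage markers on the array, the dim Cd68 included, was 1368 to 1629 in untrained and 1622 to 2044 in trained mice. Adipocyte genes varied over a wide range in both groups, with Adipoq from 96.8 to 1635 in untrained and from 426 to 2116 in trained mice. Of 14 tested adipocyte genes, 0 passed an unadjusted p under 0.05, and the median of 0.10 was -0.02 without mouse wtt-137.

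Of 21 tested endothelial and angiogenesis genes (24 listed), 9 were above 0 and 1 was higher at an unadjusted p under 0.05 (5.2% of all genes). It was Vegfb, a growth factor linked to fatty acid transport and coronary vessels, which measured 927, 959, 979, 1062 and 1081 in untrained and 1212, 1217, 1224, 1224 and 1401 in trained mice. There was no overlap between the groups, with a difference of 0.31 ± 0.10 (SE; limma adjusted p = 0.311). Vegfa, the main capillary growth factor, differed by 0.09 ± 0.07 (SE; limma adjusted p = 0.865), and Esam, an endothelial adhesion molecule, by 0.13 ± 0.07 (SE; limma adjusted p = 0.705) and by 0.07 without mouse WTUT-130. Endothelial markers Pecam1 (-0.01 ± 0.12, SE) and Cdh5 (0.04 ± 0.09, SE) lay near 0.

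Of 14 tested MHC class I and interferon genes, 9 were above 0 and 0 passed an unadjusted p under 0.05 (8.08% of all genes), with Ifi35 at 0.17 ± 0.12 (SE; limma adjusted p = 0.802) and Psmb10, an immunoproteasome subunit, at 0.12 ± 0.09 (SE; limma adjusted p = 0.83), which was 0.06 without mouse wtt-137 and 0.05 without mouse WTUT-142. Regeneration and myogenic genes gave 6 of 17 above 0 and 1 higher at that threshold (5.2% of all genes). Vim, an intermediate filament of non-muscle and regenerating cells, differed by 0.45 ± 0.19 (SE; limma adjusted p = 0.537). Tnfrsf12a, which binds the cytokine TWEAK, differed by -0.37 ± 0.18 (SE; limma adjusted p = 0.637). In the insulin and growth list, 8 of 20 tested genes were above 0 and 0 passed an unadjusted p under 0.05. Irs2, an insulin receptor substrate, stood at -0.50 ± 0.27 (SE; limma adjusted p = 0.711), and at -0.76 without mouse WTUT-138. Eif4ebp1, a repressor of cap-dependent translation, stood at -0.44 ± 0.24 (SE; limma adjusted p = 0.709), and at -0.25 without mouse wtt-137. In the amino acid and one-carbon list, 11 of 20 tested genes were above 0 and 4 were higher at that threshold (5.2% of all genes): Got2 and Ckmt2, described above, Acss2, an acetyl-CoA synthetase, at 0.34 ± 0.10 (SE; limma adjusted p = 0.285), and Gpt, alanine aminotransferase, at 0.30 ± 0.08 (SE; limma adjusted p = 0.257). Erythroid and nerve genes were few and near 0: Alas2 differed by 0.17 ± 0.25 (SE), Hba-a1 by -0.01 ± 0.10 (SE), Pmp22 by 0.09 ± 0.10 (SE; 0.0053 without mouse wtt-137) and Mbp by 0.05 ± 0.07 (SE).

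The remaining lower genes of smallest p belong to no single pathway. Gnas, the stimulatory G protein subunit downstream of beta-adrenergic receptors, measured 6511, 6804, 6804, 7014 and 7083 in untrained and 6100, 6118, 6134, 6134 and 6310 in trained mice. The groups did not overlap although the difference was small, -0.15 ± 0.03 (SE; limma adjusted p = 0.181), and -0.09 by a second probe set. Gpcpd1, a glycerophosphocholine phosphodiesterase, measured 2690, 2761, 3081, 3197 and 3801 in untrained and 1777, 2104, 2186, 2228 and 2514 in trained mice, a difference of -0.51 ± 0.11 (SE; limma adjusted p = 0.181). Rsrp1, an arginine- and serine-rich protein, had no value in mouse WTUT-142; the other 4 untrained mice measured 1367, 1385, 1766 and 1782 and the trained mice 773, 842, 933, 1144 and 1226. Its difference was -0.65 ± 0.15 (SE; limma adjusted p = 0.19), and a second probe set gave -0.81. Mlx, a partner of the glucose-sensing factors ChREBP and MondoA, measured 264 to 339 in untrained and 163 to 261 in trained mice, a difference of -0.41 ± 0.10 (SE; limma adjusted p = 0.244) and of -0.16 by a second probe set. Cmya5, a large sarcomeric protein also called myospryn, went from 8257 ± 466 to 7222 ± 432 (SD, n = 5 each), a difference of -0.19 ± 0.05 (SE; limma adjusted p = 0.234). Eif4b, which helps the helicase that opens mRNA for translation, differed by -0.22 ± 0.06 (SE; limma adjusted p = 0.244) without overlap, and by -0.28 and -0.12 in its other 2 probe sets.

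The same contrast in the MHC class I over-expressing mice used other animals, with no shared controls. Both contrasts came from the same fit with a shared estimate of each gene's spread, so their p-values are not independent. Of the 20 genes of smallest p in wild-type mice, 18 had the same sign in transgenic mice. Of the 20, 15 (75%) had both the same sign and an unadjusted p under 0.05 there, beside 14.74% of all tested genes. Of the 441 genes higher in wild-type mice at an unadjusted p under 0.05, 90.7% had the same sign in transgenic mice, and of the 245 lower genes 90.2%, beside 68.48% of all tested genes. Ndufb10 differed by 0.37 ± 0.08 (SE) in wild-type and 0.40 ± 0.08 (SE) in transgenic mice, and Got2 by 0.27 ± 0.06 (SE) in both. Mylk2 differed by -0.54 ± 0.11 and -0.49 ± 0.11 (SE). Complex I had medians of 0.15 and 0.18, and all 33 tested subunits were above 0 in transgenic mice.

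Some genes had unlike values in the 2 genotypes, but the test of that difference called 0 of 13576 probe sets (0%), with 395 probe sets (2.91%) and 222 of 8486 genes (2.62%) at an unadjusted p under 0.05 and a smallest adjusted p of 1. Palmd differed by 0.28 ± 0.06 (SE) with training in wild-type and by -0.03 ± 0.06 (SE) in transgenic mice, Mgp by 0.42 and 0.05, and Timp3 by 0.30 and -0.14. Rsrp1 differed by -0.65 and 0.04, C1qa by 0.42 and -0.09, and Hspa8 by -0.16 and 0.13. Each of these 6 had an adjusted p of 1 in limma's test of the genotype difference. Among lists, the slow-fibre median was 0.14 in wild-type and -0.04 in transgenic mice, the glucocorticoid median -0.21 and -0.71, and the heat shock median -0.14 and 0.15; these differences between medians were not tested.

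**Figure D4:**
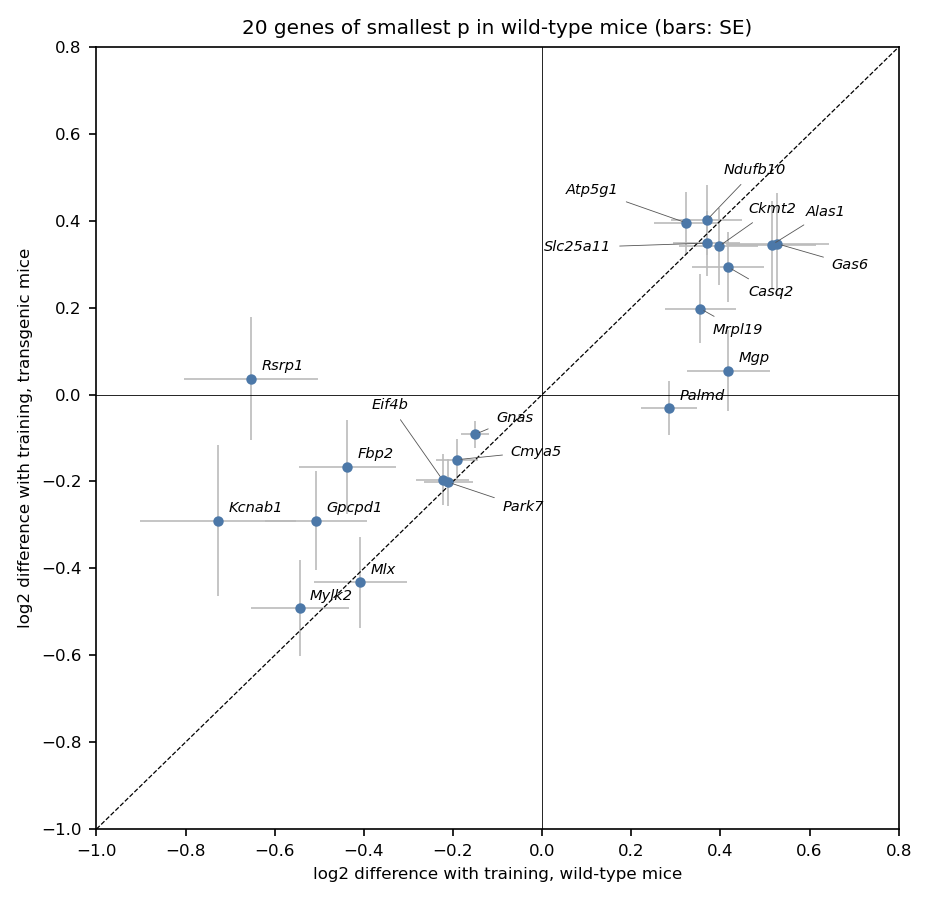
The log2 difference with training in wild-type mice (horizontal axis) and in transgenic mice (vertical axis) for the 20 genes of smallest p in wild-type mice; bars are SE, and the dashed line marks equal differences. 18 genes fall in the quadrants of equal sign, while Palmd (0.28 and -0.03) and Rsrp1 (-0.65 and 0.04) do not.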

How the data were processed

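Skeletal muscle RNA of 20 mice, 1 array each, was compared between trained and untrained wild-type mice, grouped by title. The authors deposited a table of intensity values per probe set on a linear scale (0 to 19078, 22690 probe sets), already scaled between arrays as far as the values show; biotin-labelled total RNA was hybridised, per the labels. The summary method is not stated there. Empty cells (1745) were treated as missing. The constant 66.7, the table's 20th percentile, was added to each deposited intensity before taking log2, with no other scaling. Control probe sets (64) were excluded, and probe sets under the 40th percentile of the mean over all arrays (intensity about 126) were dropped, which left 13576. Of the 22626 others, 20380 carry 1 gene symbol, 691 several and 1555 none in the platform annotation; genes are represented by their brightest tested probe set (8486 genes).

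Groups were compared with limma (version 3.58.1, R 4.3.3) on 4 group means over 20 arrays, moderated variances with a trend (16 residual and 3.47 prior degrees of freedom) and Benjamini-Hochberg adjustment over all 13576 probe sets, two-sided, called at an adjusted p under 0.05; the procedure was tested on simulated data. Single array measures were compared with an exact permutation test over 252 splits. Named genes are up to 15 called genes of largest difference in each direction, filled to 10 by smallest p, up to 3 called or the 2 genes of smallest p in each of 30 lists, and 20 genes fixed by symbol. Members and lists were chosen with earlier results of these data known. Other genes in the text are list members picked after their values were seen. Alternatives covered scaling, the added constant, the filter, the variance model, array weights, wild-type arrays alone, empty cells, probe sets that bind several transcripts and each mouse left out. Promoter windows are RefSeq's (GRCm38.p6).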

Additional observations from a re-analysis of the deposited data

Results flagged for a closer look

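Among 172 groups (each named gene, once per training state, with 5 mice except 4 untrained mice for Rsrp1), 16 held a mouse far from the others by Dixon's test at the 95% level, which chance alone gives in about 1 of 20 groups. Mouse wtt-137 held 6 of these: it was highest for Gnas (6310, nearest 6134), Hba-a1 (274, nearest 188), Tfrc (1602, nearest 492) and Dbp (727, nearest 127), and lowest for Sqstm1 (2631, nearest 4042) and Gsr (250, nearest 321). Mouse WTUT-138 held 4: it was lowest for Atp1b2 (1468, nearest 1933), Junb (205, nearest 917) and Irs2 (934, nearest 2357), and highest for Syvn1 (478, nearest 437). Mouse WTT-144 held 4: it was highest for Park7 (3364, nearest 2933) and Rpl4 (5489, nearest 4786), and lowest for Fbp2 (152, nearest 213) and Mbp (204, nearest 225). Mouse WTT-141 was highest for Vegfb (1401, nearest 1224), and mouse WTUT-130 for Rpl4 (5527, nearest 5156).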

How the results depend on the processing

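With 5 mice a group, no probe set was called for training under any scaling, constant, filter, variance model, fit of wild-type arrays alone or handling of empty or several-transcript probe sets, all run as planned. The exceptions were array weights, with 90 called, and the mice left out in turn, with 0 to 4 called; the 4, found without mouse WTT-144, were Alas1 (0.61), Mgp (0.51), a second probe set of Bgn (0.71) and Tnrc6a (-0.29). At an unadjusted p under 0.05, 1069 probe sets became 1948 with array weights (1022 higher and 926 lower), 663 without probe sets that bind several transcripts, where 8894 were tested, and 786 (without mouse WTUT-135) to 1330 (without mouse WTT-144) when mice were left out. The genotype difference, with 0 called, gave 7 called with array weights, an alternative chosen after seeing the data: Pigk, Igfbp4, Serping1, Prg4, Lox, Dock9 and Art3. Array weights called 27 of the 86 named genes, beside 90 of all 13576 probe sets. Among the 27 were all 10 higher and 7 of the 10 lower genes of smallest p. Those genes were picked by their p in the same arrays, so these calls are not separate support. For the effect of weighting the cause was not tested. The medians of all 30 lists stayed within 1 SD between mice under the alternatives run, a wide bound where mice scatter. Shifts without mouse wtt-137 from -0.24 to -0.09 for protein breakdown and from -0.21 to -0.07 for glucocorticoid targets count as within it. Among named genes 6 changed sign: Ppargc1a stood at 0.0044 after quantile normalization, 0.0002 with arrays centred on their medians, 0.0178 with an added constant of 1 and -0.37 to 0.16 with mice left out; Myh4 at 0.0034 after quantile normalization and -0.0197 to 0.0070 with mice left out. With mice left out, Alas2 ran from -0.0167 to 0.30, Hba-a1 from -0.0994 to 0.0254, Mbp from -0.0098 to 0.0703 and Myh7 from -0.14 to 0.51. No paired analysis was possible because each mouse number belongs to 1 mouse of 1 group. The number of arrays limits what a smaller difference could show.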
